A study of Rattus norvegicus with 8 samples.

Results

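The adrenomedullin, apelin and endothelin systems are 3 families of secreted peptides and the receptors through which they act on blood vessels and neighbouring cells. The set held 10 listed genes, namely the ligand genes Adm, Apln and Edn1 and the receptor or receptor-partner genes Calcrl, Ramp1, Ramp2, Ramp3, Aplnr, Ednra and Ednrb. A gene was measured where a probe set of the array was annotated with its symbol alone, and this held for 8 of the 10 genes, each with 1 probe set, among 18166 genes in all. Ednra and Ednrb were matched to no probe set and were not analysed here, so the receptors of endothelin have no value below.

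The samples were freshly isolated alveolar type II (ATII) cells, the epithelial cells that make lung surfactant, from 4 male Sprague Dawley rats whose age is not given in the labels. Each rat gave 1 well transduced with AdGFP, an adenovirus for green fluorescent protein, and 1 well transduced with AdHIF1a, an adenovirus for a constitutively active mutant of HIF1a, the subunit of hypoxia-inducible factor that is degraded when oxygen is present. Both groups were incubated for 3 h with virus in 2% FBS (multiplicity of infection 20), were plated on 80% rat tail collagen and 20% Matrigel with 5% rat serum, and were harvested 24 h later. The promoter and species of the transgene, the share of cells transduced and the protein levels are not stated in the labels, and rat and extraction day coincide.

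Adrenomedullin is a vasodilator peptide that also tightens the endothelial barrier. Its receptor is built from Calcrl, a G protein-coupled receptor that needs a partner protein at the cell surface. With Ramp2 or Ramp3 the complex binds adrenomedullin, and with Ramp1 it binds calcitonin gene-related peptide (CGRP). Apelin acts through its own receptor, Aplnr, in endothelial and heart cells, and endothelin-1, the product of Edn1, is a strong constrictor of vessels and airways. Adm, Apln and Edn1 are each described in the literature as genes that low oxygen can raise.

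The sequence before the start site of the 3 ligand genes is shown because these genes gave the largest and one of the smallest differences of the set. The lines give the 250 bases before the start site from the RefSeq promoter table of GRCr8, at chr1:174179950-174180199 (plus strand) for Adm, chrX:132091247-132091496 (minus strand) for Apln and chr17:22666688-22666937 (minus strand) for Edn1, each 5′ to 3′. Capitals mark a match to the core letters of the hypoxia response element, searched as ACGTG or GCGTG and, for the other strand, as CACGT or CACGC.
Adm: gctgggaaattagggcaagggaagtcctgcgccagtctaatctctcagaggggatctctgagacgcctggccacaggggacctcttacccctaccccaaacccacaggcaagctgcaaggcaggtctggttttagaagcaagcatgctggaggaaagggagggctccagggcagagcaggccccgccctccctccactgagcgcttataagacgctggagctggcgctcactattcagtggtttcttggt
Apln: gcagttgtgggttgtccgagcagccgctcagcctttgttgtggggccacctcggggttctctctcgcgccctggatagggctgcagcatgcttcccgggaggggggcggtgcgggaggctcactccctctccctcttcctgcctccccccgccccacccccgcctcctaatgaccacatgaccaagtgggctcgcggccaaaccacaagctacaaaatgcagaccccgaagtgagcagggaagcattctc
Edn1: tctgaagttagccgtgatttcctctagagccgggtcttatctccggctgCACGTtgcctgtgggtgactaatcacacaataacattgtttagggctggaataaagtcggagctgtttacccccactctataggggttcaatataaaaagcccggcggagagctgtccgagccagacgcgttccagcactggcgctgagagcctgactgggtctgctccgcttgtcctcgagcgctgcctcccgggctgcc
The Adm and Apln windows held 0 matches, and the Edn1 window held 1, CACGT, whose first letter lies at position -201 from the start site. Of the 6 measured members with an entry in the table, Ramp1 and Ramp3 also held 1 match each, GCGTG at positions -73 and -66, and Calcrl held 0. Such a match was present in 36.7% of the 33469 windows of the same length in the table. These letters describe the window only, and sequence farther from the start site was not searched.

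Adm and Apln rose strongly in the AdHIF1a wells of every rat, whereas Edn1 did not pass the test. Among the receptor genes, Calcrl and Ramp2, which together make an adrenomedullin receptor, fell moderately. Ramp1, Ramp3 and Aplnr did not pass the test. All values are log2 signals, so that 1 unit is a factor of 2 in signal, and all differences are AdHIF1a minus AdGFP within rats with the standard error (SE) of the paired limma fit. A gene was called at an adjusted p under 0.05 over all 18166 genes, and 20.2% of all genes were called, 8.68% as higher and 11.5% as lower. With the variance prior of the fit taken over all 36685 probe sets of the array in place of the named genes, 13.4% were called, 5.68% as higher and 7.77% as lower. The calls of the 8 measured members were the same with that prior, although Ramp2 was then close to the threshold (limma adjusted p = 0.0493).

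**Figure D1:**
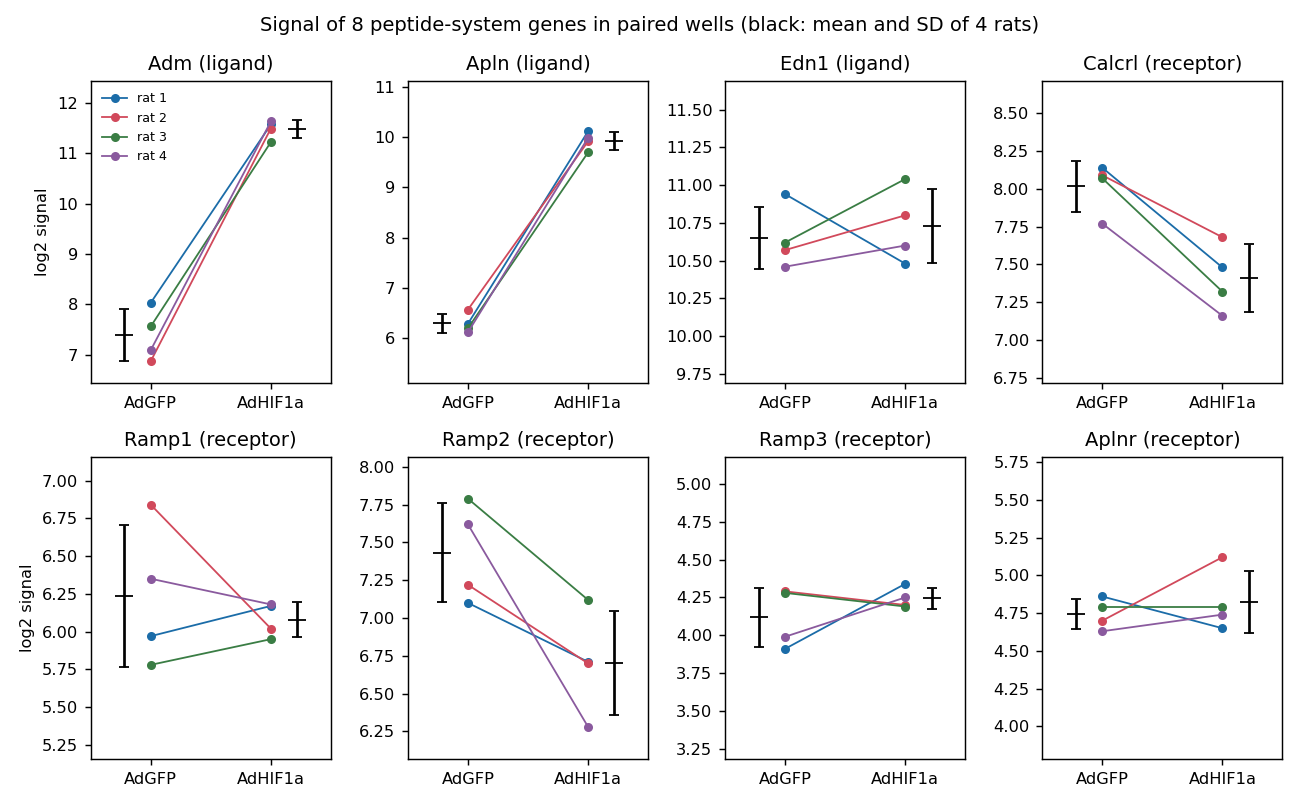
Log2 signal of the 8 measured genes in the AdGFP and AdHIF1a wells of 4 rats, with a line for each rat and the group mean and SD (n = 4) in black; the vertical span is 6 units for Adm and Apln and 2 units for the others. The AdHIF1a wells of Adm (11.22 to 11.63) and Apln (9.69 to 10.11) lie above all AdGFP wells, those of Calcrl (7.16 to 7.68) lie below all AdGFP wells, and the wells of Edn1 overlap.

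The Adm signal (probe set 17619555) under AdGFP was 8.03, 6.87, 7.56 and 7.09 in rats 1 to 4, and under AdHIF1a it was 11.57, 11.49, 11.22 and 11.63. The groups did not overlap, as held for 10.3% of all genes in the higher direction, and the rats differed more under AdGFP (SD 0.52, n = 4) than under AdHIF1a (SD 0.18, n = 4). The difference was 4.09 ± 0.20, or 17.0-fold (95% interval 12.3 to 23.5, limma adjusted p = 4.81e-05), and it was 3.54, 4.62, 3.66 and 4.54 in rats 1 to 4. Rat 1, with the highest AdGFP signal, had the smallest difference. Among the increases of all genes Adm ranked 9.

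The Apln signal (probe set 17879104) was 6.29, 6.57, 6.2 and 6.12 under AdGFP and 10.11, 9.91, 9.69 and 9.98 under AdHIF1a. Again no AdHIF1a well came near an AdGFP well, and the rats were close to each other in both groups (SD 0.20 and 0.18, n = 4). The difference was 3.63 ± 0.11, or 12.4-fold (10.3 to 14.8, limma adjusted p = 7.31e-06), the 14th of all increases in size. The differences in single rats ran from 3.34 to 3.86 and overlapped with those of Adm, so the order of these ligands in fold did not exceed the spread between rats.

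Edn1 (probe set 17718789) gave 10.94, 10.57, 10.62 and 10.46 under AdGFP and 10.48, 10.80, 11.04 and 10.60 under AdHIF1a. The signal was bright in every well, above that of 95.8% of the genes in the mean over all arrays, and the groups overlapped, with the AdHIF1a well of rat 3 above every AdGFP well. The difference was 0.08 ± 0.14 (95% interval -0.26 to 0.42, limma adjusted p = 0.751). Rat 1 was lower by 0.46 in its AdHIF1a well, whereas rats 2, 3 and 4 were higher by 0.23, 0.42 and 0.14. The interval allows a change of at most 1.34-fold upward, far under the folds of Adm and Apln. Leaving out rat 3 turned the sign of the difference (-0.03).

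Calcrl (probe set 17773924) gave 8.14, 8.09, 8.07 and 7.77 under AdGFP and 7.48, 7.68, 7.32 and 7.16 under AdHIF1a. It was the receptor gene whose groups did not overlap, as was the case for 12.2% of all genes in the lower direction. It fell by 0.61 ± 0.09, or 1.52-fold (1.32 to 1.76, limma adjusted p = 0.00347), with -0.66, -0.41, -0.75 and -0.61 in rats 1 to 4. Leaving out any 1 rat kept the call, at adjusted p from 0.00868 to 0.0200.

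Ramp2 (probe set 17651244), the partner that gives Calcrl its affinity for adrenomedullin, gave 7.10, 7.22, 7.79 and 7.62 under AdGFP and 6.71, 6.70, 7.12 and 6.28 under AdHIF1a. Each rat was lower under AdHIF1a, although the AdHIF1a well of rat 3 lay above the AdGFP well of rat 1, so the groups overlapped. The gene fell by 0.73 ± 0.16, or 1.66-fold (1.29 to 2.14, limma adjusted p = 0.0163). Rat 4 had the largest decrease (-1.34), against -0.39 to -0.67 in the other rats. The call was lost without rat 3 (adjusted p = 0.0581), with nearly the same difference (-0.75).

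Ramp1, the partner for CGRP (probe set 17861575), gave 5.97, 6.84, 5.78 and 6.35 under AdGFP and 6.17, 6.02, 5.95 and 6.18 under AdHIF1a. The difference was -0.16 ± 0.17 (interval -0.56 to 0.25, limma adjusted p = 0.594) and rested on rat 2 (-0.82), without which it was 0.07. Ramp3, the other adrenomedullin partner (probe set 17691449), stayed between 3.91 and 4.34 and Aplnr, the apelin receptor (probe set 17763560), between 4.63 and 5.12. Both lay below the median of all probe sets on each of the 8 arrays. Their differences were 0.13 ± 0.11 (-0.14 to 0.39, limma adjusted p = 0.497) and 0.08 ± 0.11 (-0.19 to 0.35, adjusted p = 0.688). The difference of Aplnr changed sign without rat 2 (-0.03). The files hold no detection calls, so whether these signals exceed background is not known.

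Set side by side, 2 of 3 ligand genes were called higher and 0 lower, and of 5 measured receptor genes 0 were called higher and 2 lower. Over all genes 8.68% were called higher and 11.5% lower. At an unadjusted limma p under 0.05 the counts of both roles were the same. The share of all genes at that threshold was not counted, here or for the marker lists below, so no reading is drawn from those counts. The median difference was 3.63 for the ligands and -0.16 for the receptors, against -0.005 over all genes. In rats 1 to 4 the median of the ligands was 3.54, 3.34, 3.49 and 3.86 and that of the receptors -0.21, -0.41, -0.09 and -0.17. With so few genes in each role these medians describe the set. In the adrenomedullin system the ligand rose while Calcrl and Ramp2 fell, in the apelin system the ligand rose while the receptor gene was not called, and in the endothelin system only the ligand could be read.

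**Figure D2:**
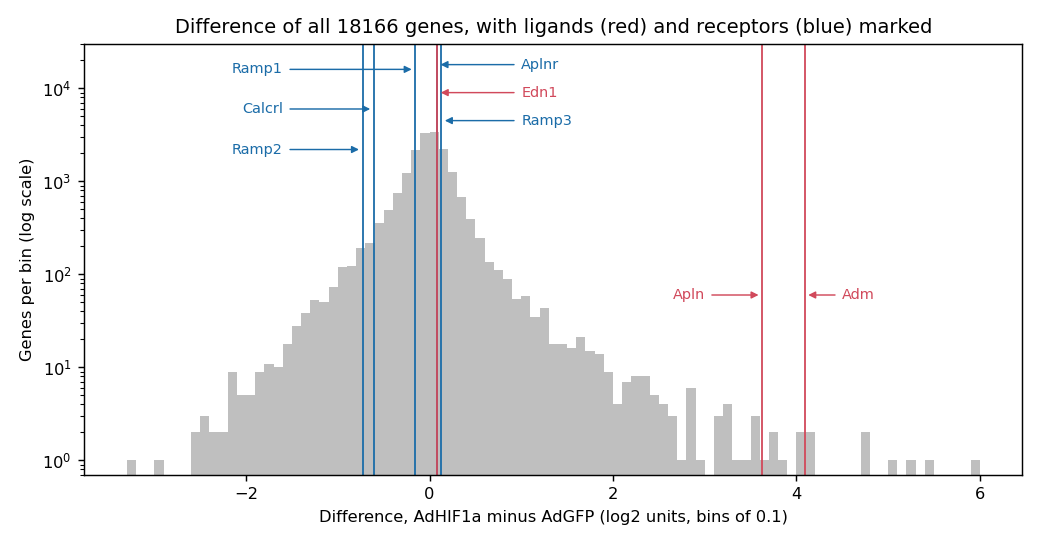
Number of genes (log scale) by difference between AdHIF1a and AdGFP in bins of 0.1 log2 units, over 18166 genes, with lines at the 3 ligands (red) and 5 receptor genes (blue). Adm (4.09) and Apln (3.63) lie in the sparse right tail, and the receptor genes lie between -0.73 and 0.13. A larger absolute difference than that of Ramp2 was found in 6.74% of all genes, and than that of Calcrl in 9.1%.

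By a likeness of pattern, measured as the root-mean-square distance between 8 log2 values centred on each gene's own mean, the genes closest to Adm were Cntfr (distance 0.29 log2 units, Pearson r 0.990 over 8 wells), Duox2 (0.32, r 0.989) and Eno2 (0.35, r 0.988). Cntfr is a receptor subunit for ciliary neurotrophic factor, Duox2 an oxidase that makes hydrogen peroxide and Eno2 a glycolytic enolase. Those closest to Apln were Ndrg2 (0.14, r 0.997), Rcor2 (0.18, r 0.996) and Serpinf1 (0.20, r 0.994). Their differences were 3.55 ± 0.09, 3.53 ± 0.09 and 3.52 ± 0.09. Ndrg2 belongs to the NDRG family, Rcor2 is a corepressor of transcription and Serpinf1 encodes the secreted factor PEDF. The genes closest to Edn1, Or5h18, Tas2r137 and Lypd4, differed by 0.04, -0.02 and 0.18 from dim signals (means of 2.50 to 3.83), so this likeness is one of small deviations only. The likeness is a description, since wells of the same virus and of the same rat enter it together.

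Other peptides of the same families moved in both directions. Of 6 measured related ligand genes, 1 was called higher and 2 lower (20.2% of all genes were called), with a median of -0.18. Adm2, the gene of the adrenomedullin-like peptide intermedin, gave 8.35, 7.53, 7.82 and 7.84 under AdGFP and 10.46, 10.19, 9.89 and 10.42 under AdHIF1a. It rose in every rat, by 2.36 ± 0.12 or 5.12-fold (4.18 to 6.27, limma adjusted p = 6.82e-05), a smaller step than that of Adm. Edn3, the gene of endothelin-3, gave 8.92, 9.04, 9.01 and 9.24 under AdGFP and 8.12, 8.26, 8.40 and 8.24 under AdHIF1a. It fell by 0.80 ± 0.09 or 1.74-fold (interval of the difference -1.01 to -0.58, limma adjusted p = 0.00136), with no overlap of the groups. Edn2, the gene of endothelin-2, fell by 0.82 ± 0.21 (limma adjusted p = 0.0332), most in rat 4 (6.96 against 5.30). That call was lost without rat 2, 3 or 4 (adjusted p = 0.0625, 0.102 and 0.0544) and with the variance prior over all probe sets (0.0831). The amylin gene Iapp and the CGRP genes Calca and Calcb were not called, with differences of -0.14, -0.21 and 0.14.

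**Figure D3:**
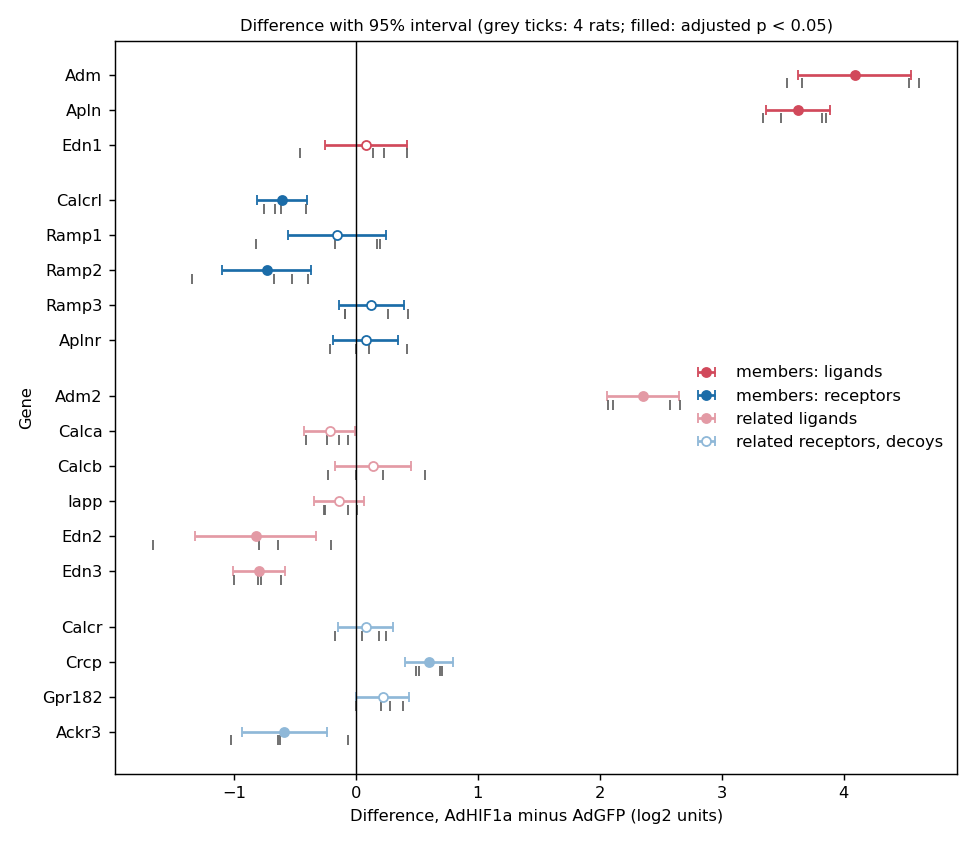
Difference between AdHIF1a and AdGFP in log2 units with 95% intervals for the measured ligand and receptor genes and for related ligands and receptors; grey ticks are single rats and filled points passed an adjusted p of 0.05. Among the filled points, Adm, Apln and Adm2 stand far to the right and Crcp (0.60) lies right of 0, while Calcrl, Ramp2, Edn2, Edn3 and Ackr3 lie left of 0.

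Of 4 related receptor genes, 1 was called higher and 1 lower, where 8.68% and 11.5% of all genes were called. Crcp, a small intracellular protein that assists the CGRP receptor, rose by 0.60 ± 0.08 (limma adjusted p = 0.00291). Ackr3, a scavenger receptor of chemokines that also takes up adrenomedullin, fell by 0.59 ± 0.15 (adjusted p = 0.0314), with only -0.06 in rat 3. Its call was lost without rat 1, 2 or 4 (adjusted p = 0.0880, 0.0940 and 0.111) and with the variance prior over all probe sets (0.0775). The calcitonin receptor gene Calcr (0.08 ± 0.10) and Gpr182 (0.22 ± 0.09) were not called.

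Among 19 measured enzymes that mature or break down such peptides, 2 were higher and 5 lower (36.8% called, against 20.2% of all genes, median -0.08). Ece1, the converting enzyme that releases active endothelin, gave 9.69, 9.58, 9.29 and 9.68 under AdGFP and 8.97, 8.70, 8.64 and 8.57 under AdHIF1a. It fell by 0.84 ± 0.10 or 1.79-fold (1.52 to 2.11, limma adjusted p = 0.00161). Cpd, a carboxypeptidase of the secretory pathway, fell by 0.79 ± 0.10 and Dpp4, a dipeptidyl peptidase of the cell surface, by 0.62 ± 0.10. Pcsk6, a proprotein convertase, rose by 0.55 ± 0.10. Pam, which amidates the end of adrenomedullin, differed by 0.12 ± 0.08 (adjusted p = 0.353) and Mme, the peptide-degrading neprilysin, by -0.12 ± 0.14 (adjusted p = 0.613). The other called genes were the convertase gene Furin (-0.33) and the carboxypeptidase genes Prcp (-0.50) and Cpm (0.29). These 3 genes, Pam and Mme were named after their values were seen. The call of Furin was lost when any 1 rat was left out (adjusted p = 0.0747 to 0.154), that of Prcp without rat 2 or 4 (0.0722 and 0.0752), and that of Cpm without rat 2, 3 or 4 (0.0960 to 0.182). Furin was also not called after quantile normalization (0.0565) or median centring (0.0597), and with the variance prior over all probe sets neither Furin (0.0761) nor Cpm (0.0792) was called.

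Of 32 measured genes that carry the signal inside the cell, 2 were higher and 7 lower (28.1% called, against 20.2% of all genes, median -0.13). Adcy6, an adenylyl cyclase that makes cyclic AMP downstream of receptors such as Calcrl, fell by 0.92 ± 0.08 or 1.89-fold (1.67 to 2.14, limma adjusted p = 0.000394). Its mean signal was 8.07 ± 0.12 under AdGFP and 7.15 ± 0.14 under AdHIF1a (SD, n = 4). Itpr1, a calcium channel opened by inositol trisphosphate, fell by 0.74 ± 0.10 and Prkca, a protein kinase C, by 0.74 ± 0.12. Arrb1, a beta-arrestin that turns off and internalises activated receptors, rose by 0.72 ± 0.09 or 1.64-fold (1.43 to 1.89, adjusted p = 0.00168). The other higher gene was Adcy8, named after its value was seen (0.45 ± 0.11 from a dim 3.57), whose call was lost without rat 1, 3 or 4 (adjusted p = 0.0859 to 0.129) and with the variance prior over all probe sets (0.0756).

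In other vasoactive peptide systems 3 of 33 measured genes were higher and 1 lower (12.1% called, against 20.2% of all genes, median -0.02). Tac4, which encodes peptides of the tachykinin family, rose by 1.12 ± 0.18 or 2.17-fold (1.61 to 2.92, limma adjusted p = 0.00573), from 6.96 to 7.75 under AdGFP to 8.30 to 8.76 under AdHIF1a. The natriuretic peptide receptor genes Npr1 and Npr2 went opposite ways, by 0.61 ± 0.11 and -0.76 ± 0.12. Npy, the neuropeptide Y gene, rose by 0.39 ± 0.10 (adjusted p = 0.0283), a call lost without rat 1, 2 or 3 (0.0668 to 0.124) and with the variance prior over all probe sets (0.0670). In this list 22 of 33 genes had a mean below the lowest array median.

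**Figure D4:**
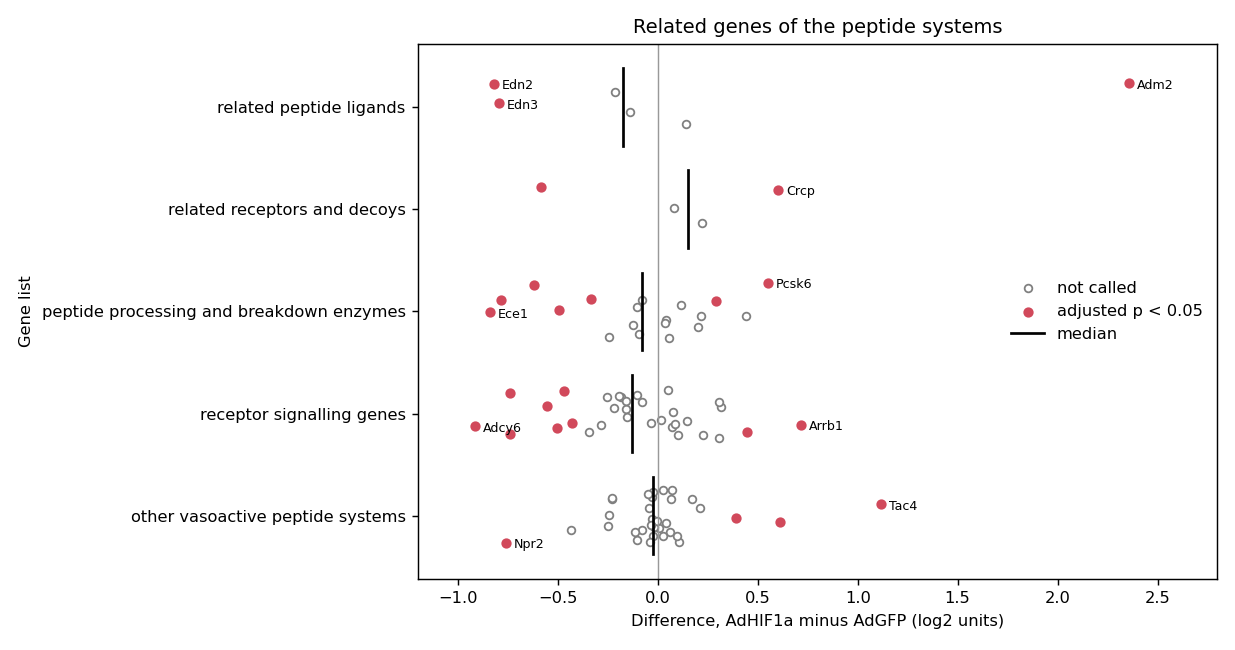
Difference between AdHIF1a and AdGFP in log2 units for each measured gene of 5 lists around the peptide systems, with called genes in red and the list median as a black bar (vertical scatter has no meaning). Adm2 stands alone at 2.36 among the related ligands, and the medians of the lists lie between -0.18 and 0.15.

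The identity of the cells bears on the receptor genes, since Calcrl and Ramp2 are abundant in endothelial cells, and in these bulk samples fewer cells of a type and less RNA per cell cannot be told apart. Of 15 listed endothelial markers 12 were measured, and Pecam1, Kdr and Ptprb have no value. Of the 12, 0 were called higher and 1 lower in limma (8.33% called, against 20.2% of all genes). At an unadjusted limma p under 0.05, 1 was higher and 2 lower, a threshold whose share of all genes was not counted. The called gene was Esam, an adhesion molecule (-0.93 ± 0.09). By their mean over all arrays, 7 of the 12 markers lay below the lowest array median and 5 did not. The markers Tek, Tie1, Emcn, Cldn5, Vwf, Sox17 and Erg lay below the array median in all 8 wells. Cdh5 was 5.18 under AdGFP and 5.41 under AdHIF1a. The summed signal of the list, on the log2 scale, was 10.03 to 10.4 under AdGFP and 9.59 to 9.83 under AdHIF1a, most of it from Esam. The part of endothelial cells in the lower Calcrl and Ramp2 signals was not tested.

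Markers of the labelled cell type were bright, with Sftpc at 12.34 ± 0.17 and 12.62 ± 0.13 (SD, n = 4) under AdGFP and AdHIF1a. Of 9 measured ATII markers 88.9% were called, against 20.2% of all genes. Sftpa1 (0.89), Sftpb (0.69) and Sftpc (0.29) were higher and Napsa (-1.52), Lamp3, Slc34a2, Lpcat1 and Abca3 (-0.82 to -0.39) were lower. Sftpc and the last 4 were named after their values were seen. Without the rat as a block the calls of Sftpb, Sftpc and Slc34a2 were lost (adjusted p = 0.0879, 0.0949 and 0.161). That of Sftpc was also lost with any 1 rat left out (0.0687 to 0.141), that of Abca3 without rat 1, 2 or 4 (0.0597 to 0.144) and that of Slc34a2 without rat 1, 3 or 4 (0.0846 to 0.0923), and all 3 with the variance prior over all probe sets (0.0840, 0.0773 and 0.0700). Markers of alveolar type I cells, which ATII cells turn into in culture, were called lower for 9 of 10, where 11.5% of all genes were. The decreases were led by Akap5 (-2.54), Aqp5 (-2.49) and Pdpn (-1.44). The list had a median of -1.01 and a summed log2 signal of 14.3 to 14.7 under AdGFP and 13.4 to 13.9 under AdHIF1a. Of 10 macrophage markers Mrc1, Csf1r and Siglec1 (-0.82, -0.46 and -0.71) were lower (30.0% called, against 20.2% of all genes). These calls were lost without the rat as a block (adjusted p = 0.238, 0.376 and 0.104) and with a random block (0.164, 0.284 and 0.0662). They were also lost with the prior over all probe sets (0.0586, 0.0590 and 0.0773). Mrc1 and Siglec1 were not called without rat 1 or 2, nor Csf1r without rat 1, 2 or 4 (0.0538 to 0.101). Siglec1 was also not called after median centring (0.0516). The summed log2 signal of the macrophage list was 10.88 to 11.64 under AdGFP and 10.03 to 11.63 under AdHIF1a. Its median difference was -0.74 in rat 1 against -0.13 to 0.01 in the other rats. Of 8 smooth muscle and pericyte markers Notch3 was higher (0.43) and Rgs5 lower (-1.38 ± 0.12), and their summed log2 signal was 8.53 to 8.97 and 8.10 to 8.39. The call of Notch3 was lost without rat 2, 3 or 4 (adjusted p = 0.103 to 0.141) and with the prior over all probe sets (0.0789). Of 7 airway markers Bpifa1 (0.50) was higher and Tppp3 (-1.23) and Ccdc39 (-0.48) were lower (42.9% called, against 20.2% of all genes). The call of Bpifa1 was lost without the block (adjusted p = 0.241), with a random block (0.165), without rat 2, 3 or 4 (0.0801 to 0.0965) and with the prior over all probe sets (0.0619). Fibroblast and lymphocyte markers gave 0 calls of 10 each in limma, where 20.2% of all genes were called. At an unadjusted limma p under 0.05, 1 and 3 were lower, a threshold whose share of all genes was not counted. The part of these shifts in the receptor results was not tested. Hif1a itself was lower on its rat probe set in 4 of 4 rats (-0.48 ± 0.08, limma adjusted p = 0.00624), which does not check the wells' labels, since it is not stated whether its probes match the transgene.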

How the data were processed

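Total RNA of 8 wells was measured on Affymetrix arrays, 1 AdGFP and 1 AdHIF1a well from each of 4 rats. Each of 36685 probe sets has a deposited log2 signal per array (2 decimals, 1.42 to 13.57), made with Affymetrix Expression Console, per the submitters' processing notes. Algorithm, version and build: not given in the sources used here. Array medians were 5.00 to 5.20 and upper quartiles 7.62 to 7.68, so no scaling was added. Such scaling hides a general shift of all transcripts, and arrays compress the folds of dim genes. Their number limits the precision.

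The platform annotation gave 1 symbol for 18511 probe sets, several for 575 and none for 17599. Gene identifiers of 18394 matched RefSeq (GRCr8), which changed 0 symbols. The brightest probe set stood for a gene, leaving 18166 genes, tested with limma 3.58.1 in R 4.3.3 (lmFit, eBayes, rat as fixed block, two-sided, Benjamini-Hochberg) and checked on simulated data. The pairing comes from the series' design; wells of 1 rat deviated together at correlations of 0.18 to 0.26, against -0.22 to 0.08 between rats.

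Named were all members, in each related list the 4 called genes with the smallest adjusted p and the largest difference, in each marker list the 3 called genes with the smallest, and the 3 genes most like each ligand. Outside this rule were Pam, Mme, Iapp, Calca, Calcb, Calcr, Gpr182, Hif1a and the endothelial markers other than Esam. So were the genes said above to be named after their values were seen. Members and lists were chosen with earlier results of these data known. The alternatives tried are listed in the closing section.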

Additional observations from a re-analysis of the deposited data

Results flagged for a closer look

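Over 58 of the named genes, 174 sets of 4 values (the wells of a group, or the differences of 4 rats) were checked for a value far from the others, and 2 stood apart, where chance gives about 5% of sets. Pam, Mme, Iapp, Calca, Calcb, Calcr, Gpr182, Hif1a and the endothelial markers other than Esam were not checked. Tas2r137, a gene named for its likeness to Edn1, had an AdGFP signal of 4.12 in rat 1 against 3.69 to 3.75 in the other rats. Abca3, a lipid transporter and ATII marker, had an AdGFP signal of 8.72 in rat 3 against 8.89 to 8.90. No measured ligand or receptor gene of the set was among them.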

How the results depend on the processing

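The alternatives were no replicate block, a random block, quantile normalization, median centring, 2 filters on dim genes, the mean of all probe sets, a trended robust prior, array weights, stricter calls (adjusted p under 0.01, or at least 1.5-fold), the omission of each rat and, added after the data were seen, the variance prior over all probe sets. Under these 16, Adm stayed at 3.91 to 4.27, Apln at 3.55 to 3.72 and Calcrl at -0.67 to -0.56, each called throughout, and Ramp2 stayed at -0.84 to -0.53. The counts of ligand genes were 2 higher and 0 lower throughout, and without the replicate block 0 receptor genes were higher and 2 lower. The block changed no call of a ligand or receptor gene. Among named genes of the related lists, the calls of Npy (adjusted p = 0.526 without the block), Cpm (0.0558) and Adcy8 (0.0543) were lost without it. In the marker lists those of Bpifa1 (0.241), Slc34a2 (0.161), Sftpb (0.0879), Sftpc (0.0949), Mrc1 (0.238), Csf1r (0.376) and Siglec1 (0.104) were lost. The related lists together then held 7 genes higher and 17 lower, against 9 and 16 with the block, so other calls were gained. The lower receptor count was 1 at an adjusted p under 0.01 and 1 to 2 with a rat left out. With a rat left out, the difference of Ramp1 ran from -0.27 to 0.067 and that of Aplnr from -0.033 to 0.18, with the sign turned without rat 2, and that of Edn1 from -0.03 to 0.26, turned without rat 3; none of them was called. Over all genes, 794 were higher and 1084 lower at an adjusted p under 0.01, 714 and 1008 with 1.5-fold, 1032 and 1411 with the added prior, and 921 to 1519 and 1196 to 2284 with a rat left out. The fewest were called without rat 4 (921 and 1196), followed by rat 2 (929 and 1266). In the related lists together, 9 genes were higher and 16 lower; these became 6 and 8 at 0.01, 5 and 10 with 1.5-fold, 6 and 13 with the added prior, and 6 to 7 and 9 to 15 with a rat left out. The filter at the lower quartile left out Ramp3, and the filter at the median also Ramp1 and Aplnr, which then have no value. No detection calls are given for the dim signals of Ramp3 and Aplnr. The causes of these changes were not tested.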
